A study of Mus musculus with 20 samples.

Results

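The 9 genes described here are the clock output and secondary-loop regulators Dbp, Tef, Hlf, Nfil3, Nr1d1, Nr1d2, Bhlhe40, Bhlhe41 and Noct. They were chosen by symbol, with earlier results of these data known. All 9 were among the 3696 genes listed in at least 1 of the 3 tables of changed genes used here. The 3 comparisons tested 14374, 14661 and 14477 genes. The gene lists used below were also chosen with earlier results known. Counts of calls among the 9 genes and the lists are therefore descriptions and not independent of that choice. RNA was sequenced from aortic tissue of female mice in 4 groups of 5 libraries, with the tissue of 2 mice pooled in each library. The KO aged and KO young groups are labelled as having lost Slc24a4 (written Nckx4-/- in the design, and both knockdown and KO in the labels), and the WT aged and WT young groups are wild type. Aged mice were 72 to 78 weeks old and young mice 12 to 15 weeks old, with no agent given. Whether the loss is confined to a tissue, the strain, and the time of day of tissue collection are not stated in the labels.

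The mammalian clock is a feedback loop in which CLOCK or NPAS2 pairs with BMAL1 to switch on genes through E-box sequences, including their own repressors, the PER and CRY proteins. A second loop runs through the REV-ERB receptors (Nr1d1, Nr1d2), which repress Bmal1 through elements shared with the ROR receptors. Output is carried by the PAR bZIP activators DBP, TEF and HLF, which bind D-box sequences, and by NFIL3, which represses through the same sites. DEC1 and DEC2 (Bhlhe40, Bhlhe41) repress through E-boxes, and nocturnin (Noct) is a rhythmic enzyme first described as a deadenylase and later found to act on NADPH. In vessels, smooth muscle and endothelial cells each have such a clock. RNA of E-box-driven genes such as Dbp peaks at another time of day than RNA of REV-ERB-repressed genes such as Bmal1.

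Promoter windows are printed for the genes that were listed in KO young against WT aged aorta and whose window held a clock motif, so that genes described in textbooks as E-box-driven or REV-ERB-repressed can be read beside their directions below. RefSeq windows on GRCm38.p6, running from 250 bases before to 50 bases after a start site, were found by symbol for 8 of the 9 genes; for Bhlhe40 none was matched. Capitals mark matches on either strand to the E-box CACGTG, the related E-prime box CACGTT, the D-box pattern TTANNTAA or the REV-ERB and ROR half-site AGGTCA, and no 2 matches overlapped.
Bhlhe41, chr6:145865371-145865670, minus strand: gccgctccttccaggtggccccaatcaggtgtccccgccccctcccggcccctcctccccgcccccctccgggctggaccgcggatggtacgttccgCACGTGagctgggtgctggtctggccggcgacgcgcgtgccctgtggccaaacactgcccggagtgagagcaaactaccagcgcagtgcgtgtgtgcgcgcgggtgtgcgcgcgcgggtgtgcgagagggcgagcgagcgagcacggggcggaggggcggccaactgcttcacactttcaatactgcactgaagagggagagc
Tef, chr15:81811164-81811463, plus strand: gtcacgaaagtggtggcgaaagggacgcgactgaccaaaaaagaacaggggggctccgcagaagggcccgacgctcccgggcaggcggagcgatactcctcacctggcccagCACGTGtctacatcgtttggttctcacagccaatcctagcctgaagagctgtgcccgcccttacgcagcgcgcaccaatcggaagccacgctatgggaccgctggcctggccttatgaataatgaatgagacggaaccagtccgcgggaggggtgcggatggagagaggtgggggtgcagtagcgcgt
Nr1d1, chr11:98775328-98775627, minus strand: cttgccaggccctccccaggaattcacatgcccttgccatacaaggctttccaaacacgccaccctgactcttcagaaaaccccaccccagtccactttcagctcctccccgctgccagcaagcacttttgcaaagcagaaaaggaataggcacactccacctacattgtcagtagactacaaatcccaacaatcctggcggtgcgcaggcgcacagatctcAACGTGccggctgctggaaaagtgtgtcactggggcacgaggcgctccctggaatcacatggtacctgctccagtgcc
Nr1d2, chr14:18239057-18239356, minus strand: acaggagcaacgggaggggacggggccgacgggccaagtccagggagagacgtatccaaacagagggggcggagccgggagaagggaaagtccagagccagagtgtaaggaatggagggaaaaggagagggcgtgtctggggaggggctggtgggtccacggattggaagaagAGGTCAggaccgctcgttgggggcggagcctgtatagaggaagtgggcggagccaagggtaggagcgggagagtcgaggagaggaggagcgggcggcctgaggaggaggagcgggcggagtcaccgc
Nfil3, chr13:52980990-52981289, minus strand: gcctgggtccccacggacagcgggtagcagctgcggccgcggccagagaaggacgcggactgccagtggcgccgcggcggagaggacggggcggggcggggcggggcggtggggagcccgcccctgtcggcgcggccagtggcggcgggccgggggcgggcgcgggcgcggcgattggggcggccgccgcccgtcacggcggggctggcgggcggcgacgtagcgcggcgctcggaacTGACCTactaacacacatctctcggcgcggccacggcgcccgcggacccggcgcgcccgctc

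The E-box lay 153 bases before the start in Bhlhe41 and 138 bases before it in Tef. A further Tef start site, whose window is not printed, had an E-box 127 bases and a match to the D-box pattern 174 bases before it. Nr1d1 had an E-prime box read on the other strand 28 bases before its start. Half-sites lay 77 bases before the start in Nr1d2 and 12 bases before it in Nfil3, where it is read on the other strand. The windows of Dbp, Hlf and Noct held none of these letters. Of 32851 windows of 300 bases in the same RefSeq table, 7.15% held the E-box, 4.68% the E-prime box, 6.00% the D-box pattern and 16.3% the half-site. Matches and directions did not go together throughout. In KO young against WT aged aorta, Nr1d2 and Nfil3 both held a half-site. Nr1d2 was lower (−0.53) and Nfil3 higher (1.73) in the authors' deposited table. Dbp, without a match, was lower there too (−1.54). These matches are descriptions of sequence and were not tested as binding sites.

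The values are those of the authors' tables, which give for each called gene (adjusted p under 0.05) a log2 fold change, its standard error (SE) and a mean normalized count over the libraries compared. No value of a single library entered the work, so levels are given as the means of both groups, computed from the pooled mean and fold change, with no error of their own. Every group mean below was computed here in this way; the authors' deposited tables give the fold change, SE and adjusted p beside it. The tables were normalized separately, the counts are not divided by gene length, and the fold changes are shrunken towards 0. Levels are therefore compared only within a gene, and firmly only within a table. The authors' deposited tables list Slc24a4 in 1 of the 3 comparisons, as lower in WT aged than in WT young aorta (log2 fold change −2.00, SE 0.46, adjusted p = 1.4e-05), and in neither comparison that includes KO libraries. Its computed mean in WT aged aorta was 130, against 520 in WT young aorta. In KO young against WT aged aorta the authors' deposited table lists 42 genes with means within 1.2 times of 130, with absolute log2 fold changes from 0.47 upwards. No fall of Slc24a4 RNA in KO young aorta, set against WT aged, was called. The value of 130 is a mean of WT aged alone, whereas the means of the 42 genes are pooled over both groups. These genes therefore do not show that a loss would have been called. The labelled loss is not seen at the RNA level in these comparisons, which does not show that it is absent. An unlisted gene may be uncalled or untested. KO and WT are used here as the labels give them. Of 8 smooth muscle markers 1 was listed in WT ageing, Des, with a log2 fold change of 0.39 and a mean normalized count of 2301. In KO young against WT aged aorta 1 was listed, Smtn (−0.20, mean 43164). In KO ageing 2 were listed, Myocd (0.58, mean 14041) and Lmod1 (−0.32, mean 24197), all in the authors' deposited tables. Levels of unlisted markers are not seen here. None of 8 leukocyte markers was listed in any comparison. In bulk tissue, fewer cells of a type and less RNA per cell cannot be told apart.

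**Figure D1:**
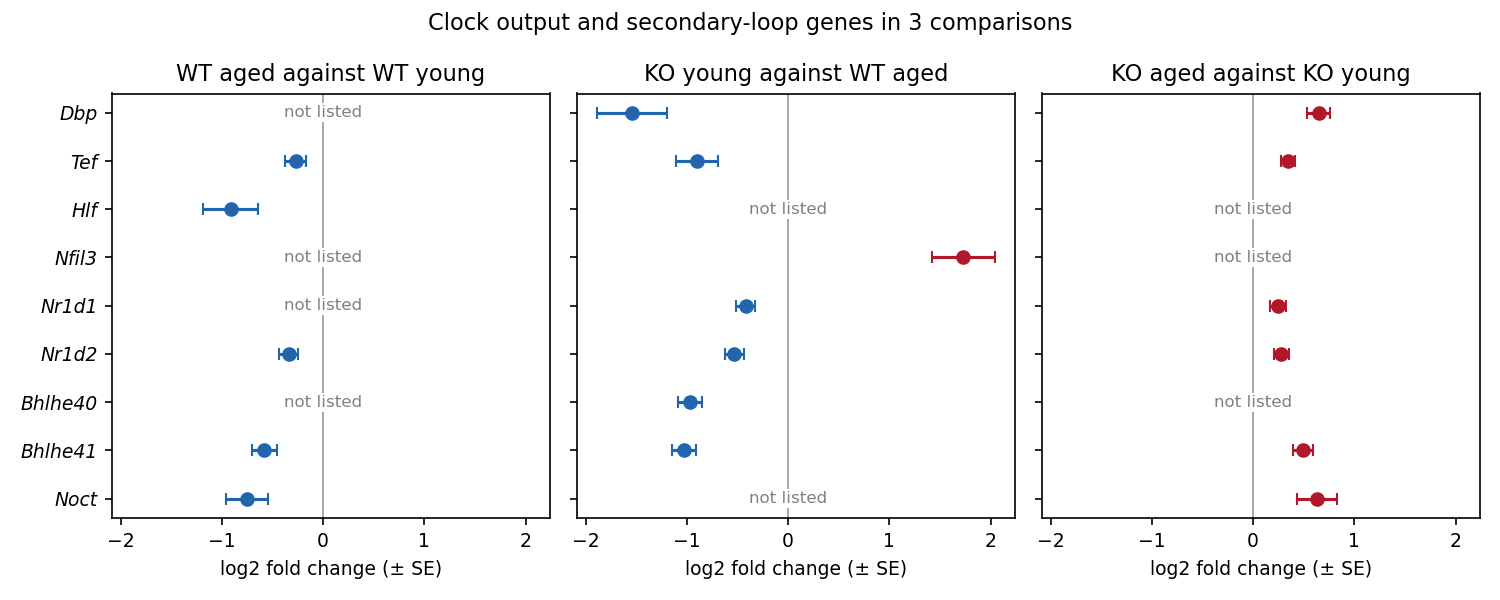
Log2 fold change with its SE (x axis) of each of the 9 genes (rows) in the 3 comparisons (panels), with blue for lower and red for higher in the first-named group. All 5 listed genes lie left of 0 in the first panel, 6 of 7 in the second, and all 6 lie right of 0 in the third.

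The first comparison asked which of these genes differ between WT aged and WT young mice. Hlf, Noct, Bhlhe41, Nr1d2 and Tef were lower in WT aged than in WT young aorta, and none of the 9 genes was called higher. These 5 calls among 9 genes, all lower, stand beside 12.0% called among all 14374 genes tested, of which 6.76% were lower and 5.26% higher. Their median absolute log2 fold change was 0.58, against 0.405 over all 1728 called genes. Dbp, Nfil3, Nr1d1 and Bhlhe40 were not listed.

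Among the PAR bZIP activators, Hlf had computed group means of 1920 in WT aged and 3607 in WT young aorta. The authors' deposited table gave −0.91 on the log2 scale (SE 0.27, adjusted p = 0.00062), the largest change among those of the 9 genes that were listed here. Tef, the other activator listed, had means of 12769 in WT aged and 15397 in WT young aorta, a log2 fold change of −0.27 (SE 0.10, adjusted p = 0.019) in the authors' deposited table. Hlf thus stood 1.88 times and Tef 1.21 times lower in aged WT aorta.

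In the repressor arms, Bhlhe41 had means of 1750 in WT aged and 2616 in WT young aorta (log2 fold change −0.58, SE 0.12, adjusted p = 7.5e-06, authors' deposited table). Nr1d2, which encodes REV-ERB beta, had means of 8957 in WT aged and 11338 in WT young aorta (−0.34, SE 0.09, adjusted p = 0.00080, authors' deposited table). The paralogue of each, Bhlhe40 and Nr1d1, went unlisted. Noct had means of 357 in WT aged and 601 in WT young aorta (−0.75, SE 0.21, adjusted p = 0.00013, authors' deposited table).

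Few core loop genes were listed in this comparison. Of 18 core loop genes 2 were listed, both lower in the authors' deposited table, the PER family repressor Per3 at −0.66 (SE 0.13) and the cryptochrome Cry2 at −0.34 (SE 0.11). Of 8 further clock outputs 2 were listed in the authors' deposited table, the deubiquitinase Usp2 at −0.27 (SE 0.13) and the NAD-producing enzyme Nampt at 0.24 (SE 0.10). Bmal1, Clock, Npas2, Per1 and Per2 were not listed. Beside these, 10 of 28 immediate early genes were listed, all lower, with Atf3 at −2.20 and Jun at −1.02 in the authors' deposited table. Of 8 fibroblast markers 5 were listed, all lower, with Col1a1 at −0.95 and Col1a2 at −0.74 in the authors' deposited table. Of 16 fat markers 2 and of 12 hypoxia genes 2 were listed, all higher, and of 8 endothelial markers 0. Of 15 glucocorticoid-responsive genes 2 were listed, Fkbp5 at 1.06 (SE 0.39) and Dusp1 at −0.47 (SE 0.60) in the authors' deposited table. Their part in the result was not tested.

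**Figure D2:**
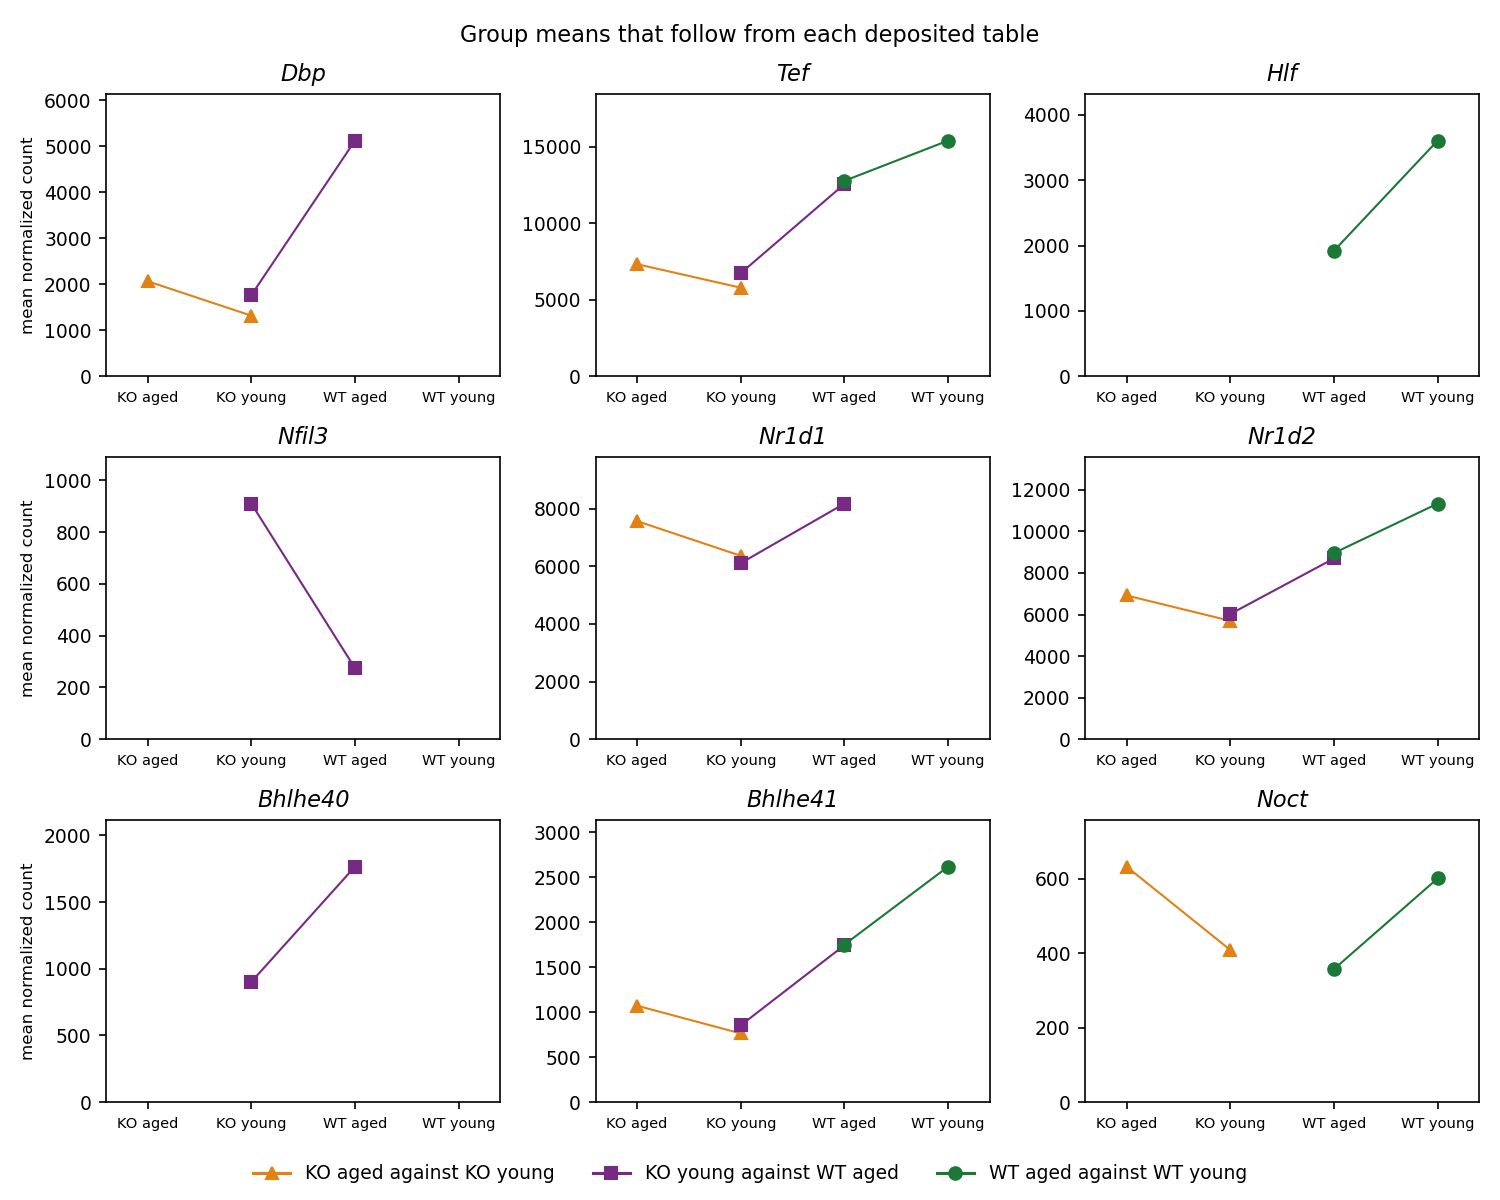
Group means in normalized counts (y axis, linear, from 0) of the 9 genes in KO aged, KO young, WT aged and WT young aorta (x axis), as they follow from each authors' table; a line joins the 2 groups of 1 table. Where 2 tables share a group, both values are drawn, and the WT aged values of Tef, Nr1d2 and Bhlhe41 nearly coincide.

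KO young and WT aged mice, compared next, differ in both genotype and age, whose effects cannot be told apart. The time of day of tissue collection in each group is not stated, so its part cannot be told apart from theirs. KO young aorta had less RNA of Dbp, Tef, Nr1d1, Nr1d2, Bhlhe40 and Bhlhe41 and more RNA of Nfil3. These 7 calls among 9 genes, 6 lower and 1 higher, stand beside 7.78% called among all 14661 genes tested, of which 3.70% were lower and 4.08% higher. Their median absolute log2 fold change was 0.97, against 0.40 over all 1141 called genes. Hlf and Noct were not listed.

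Nfil3 and the PAR bZIP gene Dbp encode proteins that act in opposite ways on D-box sequences. Among those of the 9 genes that were listed, these 2 had the largest changes, in opposite directions. Dbp had means of 1760 in KO young and 5118 in WT aged aorta, which is 2.91 times lower (log2 fold change −1.54, SE 0.35, adjusted p = 1.1e-05, authors' deposited table). Tef had means of 6730 in KO young and 12559 in WT aged aorta (−0.90, SE 0.21, adjusted p = 1.8e-05, authors' deposited table). Nfil3 had means of 910 in KO young and 274 in WT aged aorta, which is 3.32 times higher (1.73, SE 0.31, adjusted p = 2.7e-07, authors' deposited table). By absolute log2 fold change Nfil3 ranked 21 and Dbp 31 among the 1141 genes of that authors' deposited table.

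The DEC genes gave the smallest adjusted p of the 9. Bhlhe41 had means of 854 in KO young and 1743 in WT aged aorta (−1.03, SE 0.12, adjusted p = 3.9e-17, authors' deposited table). Bhlhe40 had means of 901 in KO young and 1765 in WT aged aorta (−0.97, SE 0.12, adjusted p = 4.0e-15, authors' deposited table). Bhlhe41 was thus 2.04 times and Bhlhe40 1.96 times lower, and they ranked 28 and 37 by p among the 1141 listed genes. Bhlhe40 is also known as a hypoxia-induced gene, and of 12 hypoxia genes 3 were listed, Adm higher at 0.85 and Hk2 and Ldha lower at −0.42 and −0.19 in the authors' deposited table.

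The REV-ERB genes moved less. Nr1d2 had means of 6023 in KO young and 8697 in WT aged aorta (−0.53, SE 0.09, adjusted p = 5.6e-08, authors' deposited table). Nr1d1, which encodes REV-ERB alpha, had means of 6108 in KO young and 8171 in WT aged aorta (−0.42, SE 0.09, adjusted p = 3.5e-05, authors' deposited table).

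**Figure D3:**
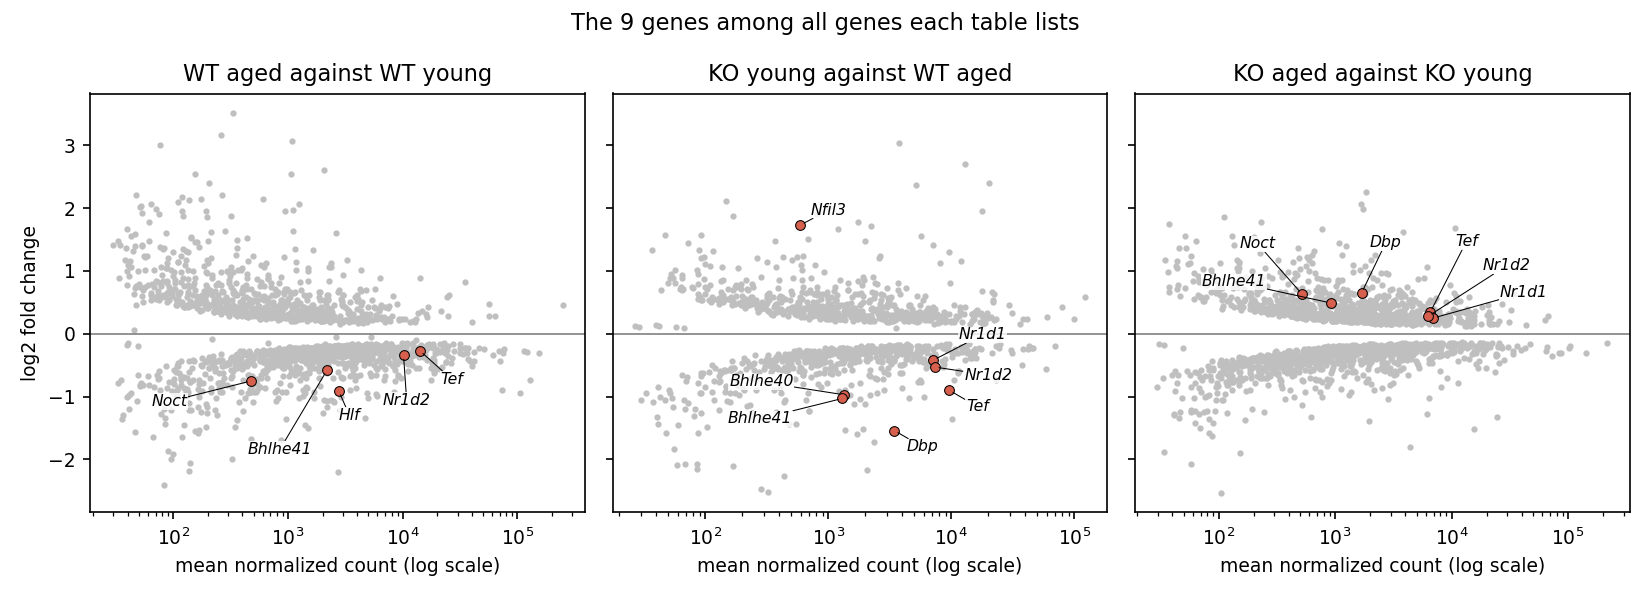
Log2 fold change (y axis) against mean normalized count (x axis, log scale) of all genes listed in each comparison (grey), with the 9 genes named in red. In KO young against WT aged, Nfil3 at 1.73 and Dbp at −1.54 lie towards the outer edge of the listed genes, whereas Nr1d1 and Nr1d2 lie nearer to 0.

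The core loop was split in this comparison, with 4 of its 8 listed genes higher in KO young aorta and 4 lower. Higher in the authors' deposited table were the activator genes Npas2 (2.01, SE 0.14), Bmal1 (1.91, SE 0.31) and Clock (0.36, SE 0.08), with the F-box gene Fbxl21 (0.54, SE 0.38). Lower in the authors' deposited table were the repressor genes Ciart (−2.27, SE 0.41), Per2 (−1.0, SE 0.22), Per1 (−0.77, SE 0.10) and Per3 (−0.74, SE 0.25). Nfil3, which like Bmal1 and Npas2 is known as a REV-ERB-repressed gene, had the sign of the activators, and the 6 other listed genes had the sign of the PER genes. Of the 8 further outputs 5 were listed and all were lower, from −0.37 for Nampt to −1.51 for Tsc22d3 in the authors' deposited table, with the cell cycle kinase gene Wee1 at −1.23.

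Other gene groups moved with these. Of 15 glucocorticoid-responsive genes, a list that holds Per1 and Tsc22d3 too, 10 were listed, 9 lower and 1 higher, with Fkbp5 at −2.16 and Dusp1 at 1.15 in the authors' deposited table. Of 28 immediate early genes, a list that shares Dusp1 with it, 26 were listed and all were higher, with Fos at 2.70 in the authors' deposited table. Fibroblast markers had 3 of 8 listed, all higher, and fat markers 3 of 16, 2 higher and 1 lower. Of 8 endothelial markers 3 were listed, 1 higher and 2 lower. The part of these groups in the result was not tested.

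The third comparison asked which of these genes differ between KO aged and KO young mice. Dbp, Noct, Bhlhe41, Tef, Nr1d2 and Nr1d1 were higher in KO aged than in KO young aorta, and none of the 9 genes was called lower. These 6 calls among 9 genes, all higher, stand beside 14.4% called among all 14477 genes tested, of which 7.71% were higher and 6.68% lower. Their median absolute log2 fold change was 0.415, against 0.33 over all 2083 called genes, so in size they lay near the typical called gene. Hlf, Nfil3 and Bhlhe40 were not listed.

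Dbp had means of 2062 in KO aged and 1314 in KO young aorta, which is 1.57 times higher (log2 fold change 0.65, SE 0.11, adjusted p = 1.0e-07, authors' deposited table). Tef had means of 7319 in KO aged and 5782 in KO young aorta (0.34, SE 0.07, adjusted p = 5.5e-06, authors' deposited table). Noct had means of 632 in KO aged and 409 in KO young aorta (0.63, SE 0.20, adjusted p = 0.0021, authors' deposited table). Dbp and Noct, at 1.57 and 1.55 times higher, had the largest changes among those of the 9 genes that were listed here.

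Bhlhe41 had means of 1071 in KO aged and 763 in KO young aorta (0.49, SE 0.10, adjusted p = 4.5e-06, authors' deposited table). Nr1d2 had means of 6916 in KO aged and 5696 in KO young aorta (0.28, SE 0.08, adjusted p = 0.00078, authors' deposited table). Nr1d1 had means of 7564 in KO aged and 6360 in KO young aorta (0.25, SE 0.08, adjusted p = 0.0048, authors' deposited table). The REV-ERB genes again moved less than Bhlhe41 and Dbp in size, though the difference between genes was not tested.

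The core loop had 7 of 18 genes listed, 3 higher and 4 lower in KO aged aorta. Higher in the authors' deposited table were Ciart (1.42, SE 0.21), Per1 (0.87, SE 0.09) and Per2 (0.74, SE 0.09), and lower were Npas2 (−0.97, SE 0.12), Bmal1 (−0.88, SE 0.14), Cry2 (−0.30, SE 0.09) and Clock (−0.16, SE 0.06). All 5 listed further outputs were higher, led by Tsc22d3 (1.98, SE 0.11) and Wee1 (0.96, SE 0.13) in the authors' deposited table. Of the glucocorticoid-responsive genes 12 of 15 were listed, 11 higher and 1 lower, with Fkbp5 at 2.25 and Zbtb16 at 1.69 in the authors' deposited table. Of the immediate early genes 17 of 28 were listed, 16 lower and 1 higher; Noct, which is also known to be induced by serum in cultured cells, was higher. Fat markers had 6 of 16 listed, 5 higher and 1 lower, with Ucp1 at 1.62 in the authors' deposited table, and fibroblast markers had 3 of 8, all lower. Of 12 hypoxia genes 4 were listed, 2 higher and 2 lower, and of 8 endothelial markers 0. The part of these groups in the result was not tested.

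**Figure D4:**
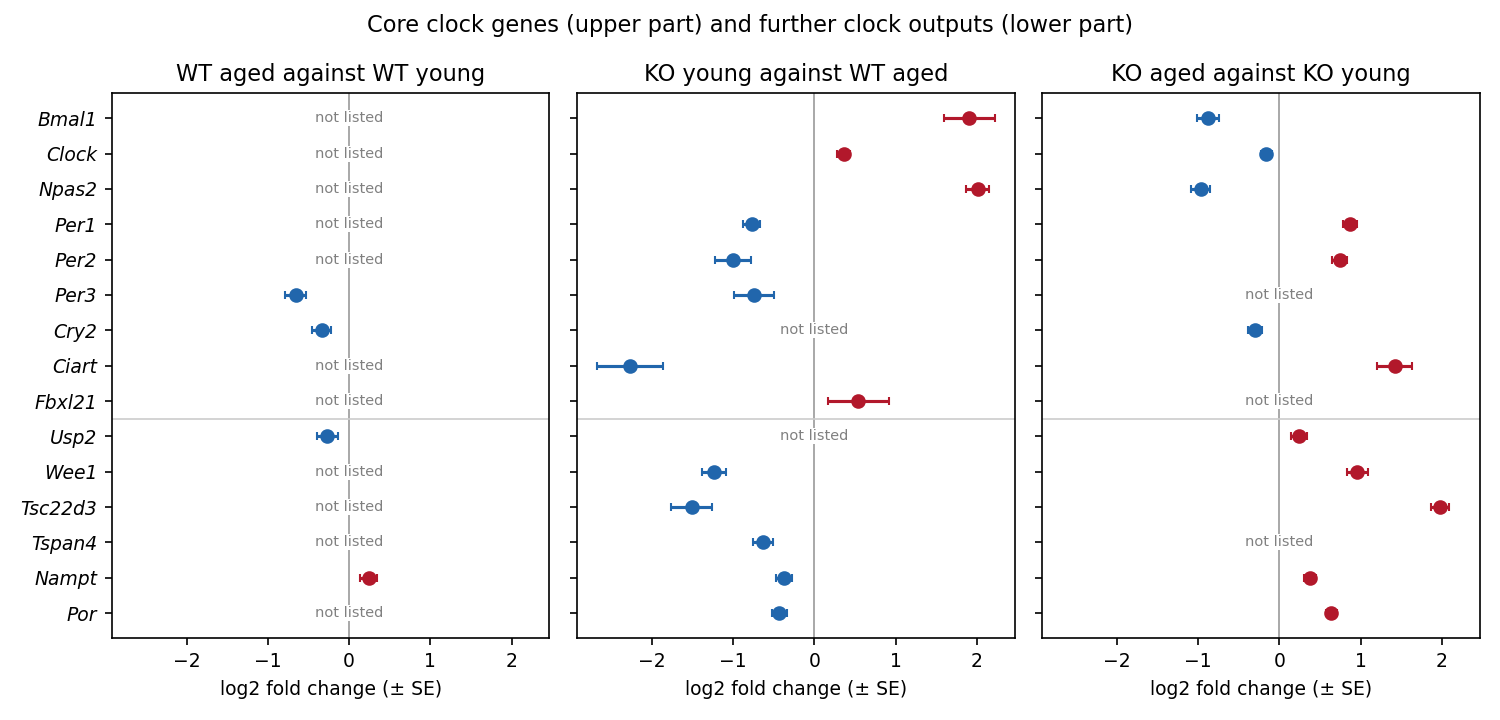
Log2 fold change with its SE (x axis) of the core loop genes (above the line) and the further clock outputs (below it) that were listed in at least 1 comparison; panels are the 3 comparisons. In KO young against WT aged, Bmal1 and Npas2 lie near 2 and the PER genes and Ciart left of 0. In KO aged against KO young these signs are turned for all of them but Per3, which is not listed there. The KO young libraries are the first-named group in one comparison and the reference in the other. The turned signs are therefore not a separate observation.

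The change between young and aged aorta had opposite signs in the 2 genotypes for the 4 genes listed in both ageing comparisons. The time of day of tissue collection in each group is not stated, so its part cannot be told apart from that of age. These comparisons share no library, so the SE of the difference of their log2 fold changes (KO ageing minus WT ageing) is the root of the summed squared SEs. The difference was 1.38 (SE 0.29) for Noct, and 1.07 (SE 0.16) for Bhlhe41. It was 0.62 (SE 0.12) for Nr1d2 and 0.61 (SE 0.13) for Tef. With a normal distribution and Benjamini-Hochberg adjustment over the 438 genes listed in both comparisons, all 4 differences passed an adjusted p of 0.05, beside 29.9% of the 438 genes, or 17.8% counting positive differences alone. Entry nearly fixed that outcome, since a gene called in both comparisons with opposite signs passed in 76 of 77 cases (98.7%), against 55 of 361 genes (15.2%) with the same sign. The differences therefore add little to the 2 separate calls of each gene and are given as sizes. A fall with age in WT and a rise with age in KO was seen for 38 of the 438 genes, or 8.68%, and 97.4% of these passed. Genes listed in 1 ageing comparison only, such as Dbp, Nr1d1 and Hlf, could not be entered, so whether ageing differed between genotypes was not tested for them.

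**Figure D5:**
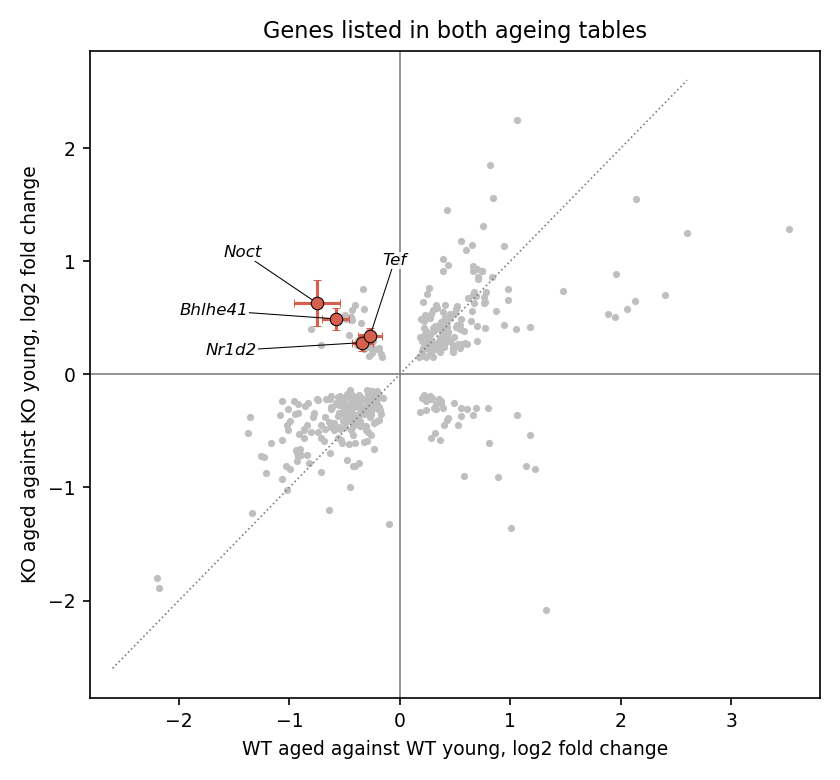
Log2 fold change with age in KO aorta (y axis) against that in WT aorta (x axis) for the 438 genes listed in both comparisons (grey), with Noct, Bhlhe41, Nr1d2 and Tef in red with their SEs; the dotted line marks equal values. All 4 lie above and left of 0, with WT ageing from −0.27 to −0.75 and KO ageing from 0.28 to 0.63.

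Set side by side, though normalized separately, the tables order the 4 groups alike for the 3 genes listed in all of them. Bhlhe41 had 1071 in KO aged, 763 and 854 in KO young, 1750 and 1743 in WT aged and 2616 in WT young aorta, where pairs of values come from the 2 tables that share the group. Tef had 7319 in KO aged, 5782 and 6730 in KO young, 12769 and 12559 in WT aged and 15397 in WT young aorta. Nr1d2 had 6916 in KO aged, 5696 and 6023 in KO young, 8957 and 8697 in WT aged and 11338 in WT young aorta. The lowest mean of each gene was thus that of KO young and the highest that of WT young. KO young means differed between tables by up to 0.42 on the log2 scale, for Dbp, with 1314 in one table and 1760 in the other. These means rest on shrunken fold changes, and the part of the shrinkage in that gap was not tested.

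Noct did not share this order. Its means were 632 in KO aged and 409 in KO young aorta in one table, and 357 in WT aged and 601 in WT young aorta in the other. KO young and WT aged lay near each other, and Noct was not listed between them.

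Groups of the same age were not compared directly in these tables, but the fold changes of tables that share a group can be added. KO young against WT young aorta then gave a log2 value of −1.61 for Bhlhe41, −1.17 for Tef and −0.87 for Nr1d2. From the SEs alone, and if both tables gave the shared group the same level, the error of these sums is at most 0.17, 0.23 and 0.13. The shared group then adds to the error of both terms and drops out of the sum. KO aged against WT aged aorta gave −0.89 for Dbp, with an error of at most 0.36 on those terms, and −0.56 for Tef, with at most 0.22. It gave −0.54 for Bhlhe41, −0.25 for Nr1d2 and −0.17 for Nr1d1, with errors of at most 0.15, 0.12 and 0.12. The value of Nr1d1 lay within 2 such errors of 0. These errors leave out disagreement between tables on the shared group. The KO young mean from KO ageing, set against that from the other table, stood at −0.42 for Dbp and −0.22 for Tef on the log2 scale. The sums carry the shrinkage of both tables and were not tested.

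Genes that go unlisted were not shown to be unchanged. Bhlhe40 had a mean of 1765 in WT aged aorta, and 149 genes with means within 1.2 times of it were listed in WT ageing, with absolute log2 fold changes from 0.17 upwards. Nfil3 had 910 in KO young aorta, and 213 genes near that mean were listed in KO ageing, from 0.19 upwards. Dbp had 5118 in WT aged aorta, and 111 genes near that mean were listed in WT ageing, with a median change of 0.27 in size on the log2 scale. These are called genes only and do not show that a change of that size would have been called.

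The genes whose 3 log2 fold changes lay nearest to those of a clock gene, by Euclidean distance among the 236 genes listed in all 3 tables, were found for Bhlhe41, Tef and Nr1d2. Mthfd1l, a mitochondrial folate enzyme gene, was nearest to both Bhlhe41 (distance 0.19) and Tef (0.26), with −0.46 in WT ageing, −1.08 in KO young against WT aged and 0.35 in KO ageing in the authors' deposited tables. Tef and Bhlhe41 were 0.37 apart and each was among the 3 nearest of the other; Fmo1 was the third for Bhlhe41 and Pkn3 the second for Tef. Nearest to Nr1d2 were Lrrc8c (0.08) and the genes Herpud1 (0.12) and Hspb7 (0.12). These rest on 3 comparisons of 4 groups, of which neighbouring ones share libraries, and say nothing of shared function.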

How the data were processed

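RNA of 20 aortic libraries was measured. The submitters' processing notes name DESeq2 1.42.1, STAR 2.7.11b, Subread 2.0.8 with featureCounts, and build GRCm39, without settings. The authors deposited, per the file headers, a p-value and adjusted p-value, a log2 fold change (rounded to 2 decimals) with its SE, and a mean normalized count, a signal pooled over the libraries compared. Genes not called are not in these tables; the number tested was computed from the adjusted and raw p of the first row. No model was refitted, and library depth is unknown.

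The headers do not say which group is on top. The sign was read from the agreement of shared group means: positive as higher in aged gave a median absolute log2 gap of 0.0276 for WT aged and 0.0741 for KO young, against at least 0.201 and 0.132 for other readings. The values of KO young against WT aged were turned.

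Scripts, tested on simulated data, ran in Python 3.11.15 with SciPy 1.17.1, pandas 2.3.3 and matplotlib 3.10.9. The 9 genes and all lists were chosen with earlier results of these data known. Named were the 9 genes, all listed core loop and further output genes, up to 4 of each other list by adjusted p, the 3 nearest genes, and Slc24a4. Ccn1 and Nr4a3 were named besides, for changes in WT ageing smaller than their SEs. Alternatives changed the threshold, a minimum mean, a minimum fold change and the SE.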

Additional observations from a re-analysis of the deposited data

Results flagged for a closer look

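For 4 of the 9 genes the log2 fold changes with age had opposite signs in KO and WT aorta, and their difference passed its test. The differences, KO ageing minus WT ageing on the log2 scale, were 1.38 for Noct, 1.07 for Bhlhe41, 0.62 for Nr1d2 and 0.61 for Tef. Only genes called in both comparisons could enter, and 76 of the 77 with opposite signs passed, so the pass was nearly fixed by entry and is no separate support; also the time of day of tissue collection in each group is not given in the sources used here.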

How the results depend on the processing

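Where the log2 fold change had to reach 0.5 in size, the calls among the 9 genes were 3 in WT ageing and 2 in KO ageing, in place of 5 and 6. Among the 26 core loop and further output genes, WT ageing gave 2 calls at an adjusted p under 0.01 and 1 at that fold change, in place of 4. Over the other lists, WT ageing gave 12 and 10 calls under the same settings. Shares over all genes tested were not computed at these settings, so none of these counts can be set against a background. The settings for these other lists, and for the sums below, were added after seeing the data. A minimum mean normalized count of 100 could change no count, because every listed gene counted here had a higher mean, the lowest being 110 for Fbxl21. The 4 differences of ageing effects, whose pass was nearly fixed by entry, also passed with an SE implied by the p-value, with Bonferroni adjustment and with that minimum mean. Taking each fold change as its SE times the z of its p raised the 18 values by 0.03 to 0.27, beyond 1 SE only for Noct in WT ageing, at −0.97, and moved no sum beyond its error. No paired analysis was possible because the tables hold no values per library, and for the same reason no replicate could be left out. Depth limits cannot be given.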
